A study of Mus musculus with 6 samples.

Results

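Border-associated macrophages are the macrophages of the meninges and of the spaces around brain vessels. The genes described here are 9 of their markers, out of the 53379 genes in the count tables: Mrc1, Cd163, Lyve1, Stab1, Dab2, Pf4, F13a1, Ms4a7 and Cbr2. They were taken from a named list and matched by symbol, and all 9 matched 1 gene each and passed the filter on low counts. These macrophages sit beside arteries, veins and the pia, take up proteins and debris from the fluid around vessels through scavenger receptors, and are a lineage apart from microglia, the macrophages of the brain tissue itself. Both cell types share general macrophage genes such as Csf1r, so the members are read here beside microglial genes and beside markers of vessels and meningeal fibroblasts.

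The 6 RNA sequencing libraries came from cerebral cortex of C57BL/6 mice, 2 months old. There were 3 libraries from wild type mice (replicates 1, 3 and 4) and 3 labelled GTF2ird1-/- (replicates 5, 6 and 7), called knockout below, in which both copies of the transcription factor gene Gtf2ird1 are mutated. The series title describes Gad2+ neurons, and the sources used here do not say how such cells were obtained. Whether each library was made from a separate animal is not in the labels. The p-values therefore cover the spread among these libraries alone, which may be technical in part or, in wild type, in whole. Sex-linked reads, given below, differed among the knockout libraries, so those did not all come from 1 animal.

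Total gene counts ran from 13627501 to 30544144 per library. Levels are CPM, counts scaled to a common library size with TMM factors, which correct for libraries whose RNA makeup differs. Gtf2ird1 had 23.3 to 52.6 CPM in wild type, against 40.6 to 49.6 CPM in knockout libraries. A count over the whole gene does not check the labels, because the labels do not say which part is mutated. Summed over 16 microglial genes the level was 23746 to 37912 CPM, and summed over 8 GABAergic neuron genes it was 230.0 to 989 CPM, with Gad2 itself at 29.0 to 120.4 CPM, so microglial transcripts outweighed those of the labelled cell type in every library. Libraries also stood apart in other ways. Reads that the counting gave to no feature made up 40.0% in wild type replicate 1 and 57.6% and 58.2% in replicates 3 and 4. In the knockout libraries they made up 46.8% to 51.2%. Ribosomal RNA was 17.5% of all gene counts for wild type replicate 3, 6.2% for knockout replicate 6 and at most 1.51% elsewhere. Knockout replicates 5 and 6 had Y-linked reads and at most 0.18 CPM of Xist, while knockout replicate 7 and all wild type libraries had Xist.

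Per length of exons, the most abundant member was Stab1, with a mean of 136 CPM per kilobase over the 6 libraries, followed by Mrc1 at 62.7 and Pf4 at 31.5 CPM per kilobase. F13a1, Cbr2, Lyve1, Dab2 and Cd163 lay between 10.03 and 17.9 CPM per kilobase, and Ms4a7 was lowest at 2.31. On the same scale the microglial receptor P2ry12 had 1528 CPM per kilobase, and Csf1r, the growth factor receptor that macrophages depend on, 1490.1. Stab1 exceeded Mrc1 in each library, from 138 against 103 CPM per kilobase in wild type replicate 1 to 187 against 32.7 in wild type replicate 3. The order of F13a1 and Cbr2, at 17.9 and 16.8 CPM per kilobase, was not the same in every library, since Cbr2 was above F13a1 in wild type replicate 1 and below it in the other 5.

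Among the endocytic receptors, Mrc1 encodes the mannose receptor CD206, which binds sugar chains of glycoproteins. The gene lies on the plus strand of chromosome 2 (14229392 to 14332057, GRCm38). In wild type replicates 1, 3 and 4 its levels were 656, 209 and 268 CPM. In knockout replicates 5, 6 and 7 they were 385, 413 and 466 CPM, and all values below are given in this order. Its 3 knockout values lay inside the wild type range, above replicates 3 and 4 and below replicate 1. The means were 378 ± 243 CPM in wild type, against 421 ± 41.2 CPM in knockout (SD, n = 3 each), a log2 difference of 0.16 ± 0.40 (SE; edgeR adjusted p = 0.912). The fold had bounds of 0.578 and 2.15 at 95%. The microRNA gene Mir511 lies within Mrc1 on the same strand and shares no exon base with it, and had 64 counts in all 6 libraries together.

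Cd163, the scavenger receptor for haemoglobin bound to haptoglobin, lies on chromosome 6 (124304656 to 124330527, plus strand). Cd163 stood at 74.2, 18.2 and 34.2 CPM in wild type, against 55.9, 68.3 and 77.9 CPM in knockout libraries. Wild type replicate 1 fell within the knockout range, and replicates 3 and 4 lay below it. Its log2 fold change was the largest positive value among the members, at 0.67 ± 0.45 (SE; edgeR adjusted p = 0.675). The fold had bounds of 0.763 and 3.3 at 95%.

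Lyve1, a hyaluronan receptor known from lymphatic endothelium and from macrophages along vessels, lies on chromosome 7 (110850607 to 110863239, minus strand). Lyve1 stood at 56.4, 15.0 and 25.8 CPM in wild type, against 37.3, 34.6 and 43.7 CPM in knockout libraries, a log2 difference of 0.24 ± 0.43 (SE; edgeR adjusted p = 0.868). As for Mrc1, the knockout libraries lay between wild type replicate 1 and the other wild type libraries. The lymphatic genes Flt4, Mmrn1 and Ccl21a were at or below 0.967 CPM in every library, and Prox1, which neural cells also express, had 27.4 to 65.3 CPM. On the same list Pdpn had 0.171 to 2.97 CPM and Reln 1.63 to 10.4 CPM.

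Stab1, which encodes the scavenger receptor stabilin-1 and lies on chromosome 14 (31139013 to 31168641, minus strand), did not follow the other receptors. Stab1 stood at 1422, 1921 and 1629.7 CPM in wild type, against 952, 1034 and 1466 CPM in knockout libraries. Wild type replicate 3, among the 2 lowest libraries for the other 8 members, was the highest for Stab1. The groups overlapped only through knockout replicate 7, which was above wild type replicate 1. The log2 difference was -0.53 ± 0.23 (SE; edgeR adjusted p = 0.637). The fold had bounds of 0.48 and 1.004 at 95%. In a fit with a term for Y-linked reads, an alternative added after the data were seen, the log2 difference was -0.18. Only knockout replicates 5 and 6 had such reads. That estimate therefore rests on knockout replicate 7 alone against the wild type libraries, all of which had Xist. With 1 knockout library, genotype cannot be told apart there from other traits of that library. The fit without the term does not separate sex from genotype. Stab1 shares 112 exon bases with Nt5dc2 on the opposite strand, which had 2315 counts over all libraries, against 17280 or more for Stab1 in each.

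Dab2, an adaptor protein that couples cargo receptors to clathrin, lies on chromosome 15 (6299788 to 6440712, plus strand). Dab2 stood at 115.5, 56.4 and 65.8 CPM in wild type, against 68.8, 72.7 and 107.3 CPM in knockout libraries. Wild type replicate 1 was again highest, by a smaller margin, and the log2 difference was 0.06 ± 0.30 (SE; edgeR adjusted p = 0.952). Knockout replicate 7 was the highest of the 3 knockout libraries for 8 of 9 members, all but Pf4. How often this held among all genes tested was not counted, so it is not read as a trait of the members. In the fit with a term for Y-linked reads the log2 difference of Dab2 was 0.44, which likewise rests on knockout replicate 7 alone.

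**Figure D1:**
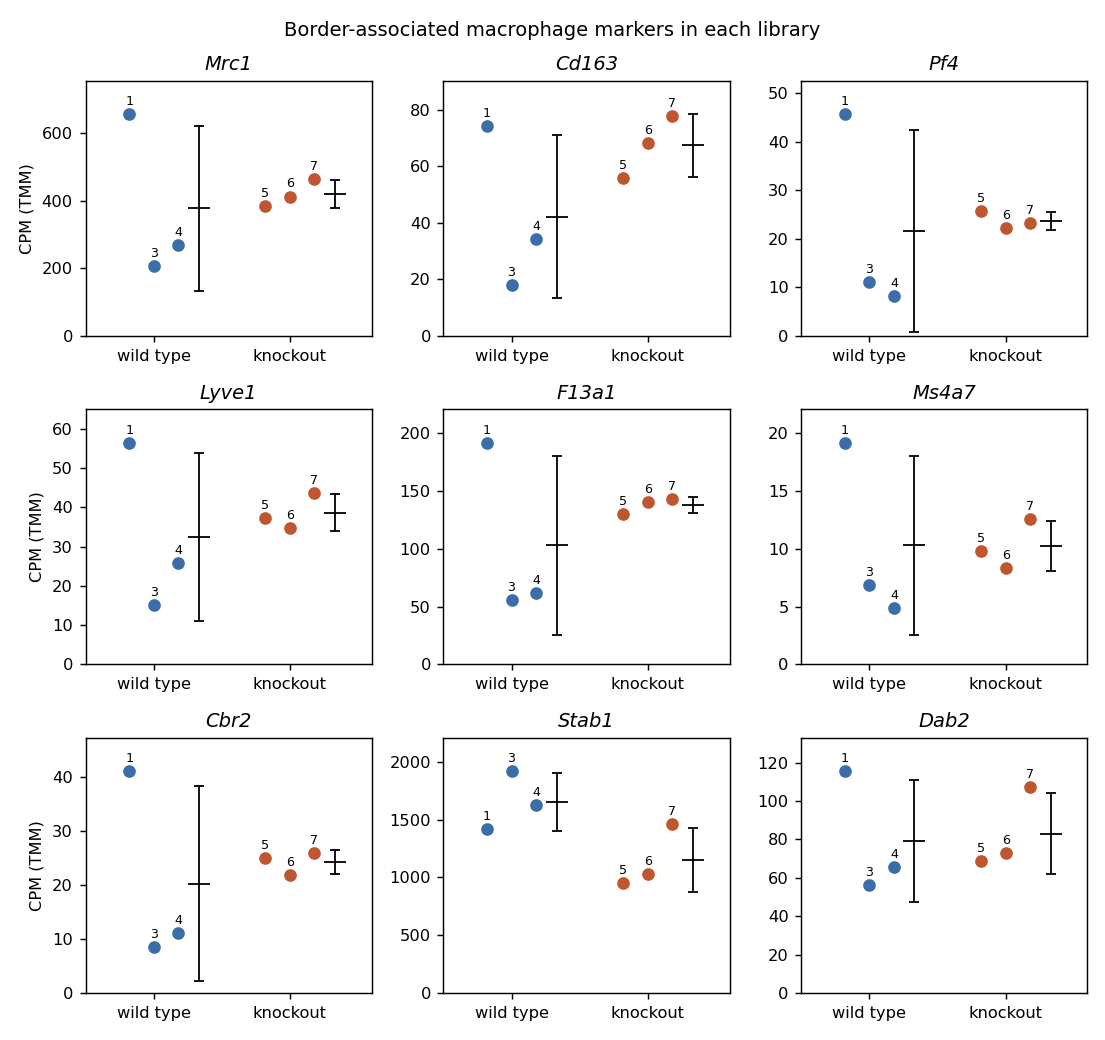
Level of each of the 9 markers in CPM (vertical axes, from 0) in the 3 wild type and 3 knockout libraries. Points are libraries with their replicate number, and the line and bar beside them are the mean and SD. For all markers but Stab1 and Cd163, wild type replicate 1 is the highest library, and knockout libraries sit above wild type replicates 3 and 4 for all but Stab1.

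Of the secreted or released proteins, Pf4 encodes the chemokine platelet factor 4 and F13a1 the A subunit of coagulation factor XIII. Both are also known from platelets and megakaryocytes. Pf4, on chromosome 5 (90772435 to 90773383, plus strand), had 45.7, 11.04 and 8.32 CPM in wild type, against 25.8, 22.2 and 23.2 CPM in knockout libraries. Its knockout libraries differed by 1.16-fold from lowest to highest and its wild type libraries by 5.49-fold, the widest wild type range among the members. The log2 difference was 0.12 ± 0.59 (SE; edgeR adjusted p = 0.955).

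F13a1, on chromosome 13 (36867178 to 37050244, minus strand), had 192, 55.4 and 61.5 CPM in wild type, against 130.2, 141 and 143 CPM in knockout libraries. The knockout values again lay between wild type replicate 1 and replicates 3 and 4, and the log2 difference was 0.42 ± 0.45 (SE; edgeR adjusted p = 0.774). The 10 platelet and megakaryocyte genes summed to 85.0 to 122 CPM in wild type, against 87.5 to 125 CPM in knockout libraries, most of it from Itgb3 and Gp9. In wild type replicates 1, 3 and 4 the platelet sum was 122, 121 and 85.0 CPM, so replicate 3 was near replicate 1 while replicate 4 was lowest. Itgb3 alone had 91.0, 94.0 and 59.3 CPM there, so the sum mostly followed that gene. The part of platelets in the levels of Pf4 and F13a1 was not tested. The platelet chemokine gene Ppbp was at or below 0.351 CPM, and Gp1ba and Gp6 were at or below 0.139 CPM, in every library. Gp5 and Tubb1 reached at most 0.855 and 0.299 CPM. Higher on the same list were Treml1, at 2.47 to 5.30 CPM, Itga2b, at 0.655 to 4.62 CPM, and Gp1bb, at 0.181 to 2.58 CPM.

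Ms4a7, a membrane protein of the MS4A family, and Cbr2, a carbonyl reductase, complete the list. Ms4a7, on chromosome 19 (11321039 to 11336146, minus strand), had 19.2, 6.88 and 4.84 CPM in wild type, against 9.84, 8.32 and 12.6 CPM in knockout libraries, a log2 difference of -0.02 ± 0.50 (SE; edgeR adjusted p = 0.992). It was the member with the fewest reads, with 76 counts in wild type replicate 3, for which the exact Clopper-Pearson 95% interval ran from 4.39 to 6.98 CPM over all gene counts. Such intervals cover counting error only, and the gap to wild type replicate 1, at 19.1 CPM on that scale, was larger. Cbr2, on chromosome 11 (120729489 to 120732114, minus strand), had 41.1, 8.51 and 11.2 CPM in wild type, against 25.1, 21.8 and 26.0 CPM in knockout libraries. The log2 difference was 0.25 ± 0.55 (SE; edgeR adjusted p = 0.895), and for Ms4a7 and Cbr2 alike the knockout libraries lay between wild type replicate 1 and the other wild type libraries.

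The comparison of genotypes asked whether these markers differed between libraries from wild type and knockout mice. None of the 9 members passed an adjusted p of 0.05 by edgeR in either direction, with 0 of 9 also at an unadjusted p under 0.05 and 0 of 9 by DESeq2 and by limma-voom. Over all 17221 genes tested, edgeR called 0.00581% as higher and 0.0% as lower in knockout libraries, and 7.25% had an unadjusted edgeR p under 0.05. DESeq2 called 0.115% as higher and 0.0385% as lower, out of the 18198 genes to which it gave an adjusted p. Fold changes were positive for 7 members and negative for 2, with a median log2 fold change of 0.16, against -0.03 over all genes tested. Groups overlapped for all 9 members, where 6.34% of all genes tested were higher and 6.68% lower in every knockout library. The bounds of the folds were wide, from 0.417 to 2.82 for Pf4 and from 0.642 to 1.7 for Dab2, so a p above the threshold does not show equal levels. In bulk RNA, fewer cells of a type and less RNA per cell cannot be told apart.

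For every member but Stab1, the spread inside the wild type group was larger than the difference between group means. From the lowest to the highest wild type library, levels differed by 3.15-fold for Mrc1, 4.08-fold for Cd163, 3.75-fold for Lyve1, 3.46-fold for F13a1, 3.96-fold for Ms4a7 and 4.84-fold for Cbr2. Over the 11584 tested genes with a mean of at least 5 CPM, the median was 1.43-fold in wild type and 1.26-fold in knockout. As many as 9.17% of these genes had a wild type range at least as wide as that of Mrc1, and 2.74% one at least as wide as that of Pf4. Dab2 differed by 2.05-fold and Stab1 by 1.35-fold within wild type. In the knockout libraries the ranges of the 9 members lay between 1.1-fold and 1.56-fold, on both sides of the median of all genes. Mrc1, Pf4, F13a1 and Cbr2 were narrower than that median, with 61.6%, 73.3%, 87.7% and 67.0% of genes at least as wide, and Lyve1 was near it at 1.26-fold. Dab2, Stab1, Ms4a7 and Cd163 were wider, at 1.56-fold, 1.54-fold, 1.51-fold and 1.39-fold, and 16.8%, 17.9%, 19.5% and 29.3% of genes were at least as wide.

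Most members placed the libraries in the same order, which was noticed after the values were seen. For 7 of 9 members, all but Cd163 and Stab1, every knockout library lay below wild type replicate 1 and above wild type replicates 3 and 4, which held for 3.97% of all genes tested. Taken singly, every knockout library was below wild type replicate 1 for 7 members, against 29.9% of genes, and above wild type replicates 3 and 4 for 8, against 18%. Summed over the 8 members other than Stab1, a sum of which Mrc1 made up the largest part, the level was 1200.2, 380 and 480 CPM across the wild type replicates, against 738, 782 and 900.1 CPM across the knockout replicates. With Stab1 included, the sum was 2622, 2301 and 2109 CPM and 1690.4, 1815 and 2366 CPM, with Stab1 the largest term in every library. Relative to the summed microglial list, the 8 members amounted to 3.17%, 1.08% and 2.02% in wild type and 3.06%, 2.51% and 3.4% in knockout libraries.

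For every member but Stab1, the proportion to Mrc1 varied less over the libraries than the level did. Lyve1 amounted to 7.2% to 9.69% of Mrc1, F13a1 to 22.9% to 34.1% and Dab2 to 17.6% to 27.0% of Mrc1 over the 6 libraries, in CPM. Cd163 ran from 8.72% of Mrc1 in wild type replicate 3 to 16.7% in knockout replicate 7, and Pf4 from 3.11% in wild type replicate 4 to 6.96% in wild type replicate 1. Stab1 was 217% of Mrc1 in wild type replicate 1 and 921% in replicate 3, a 4.25-fold range. As a measure of likeness, log2 CPM was centred on each gene's mean and the root mean square difference was taken over the 6 libraries. Between pairs of the 7 members other than Stab1 and Dab2 this difference was 0.15 to 0.55. Dab2 differed from these 7 by 0.25, for Mrc1, to 0.58, for Pf4. Between Stab1 and the other 8 the difference was 0.54, for Dab2, to 1.04, so these ranges overlapped.

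**Figure D2:**
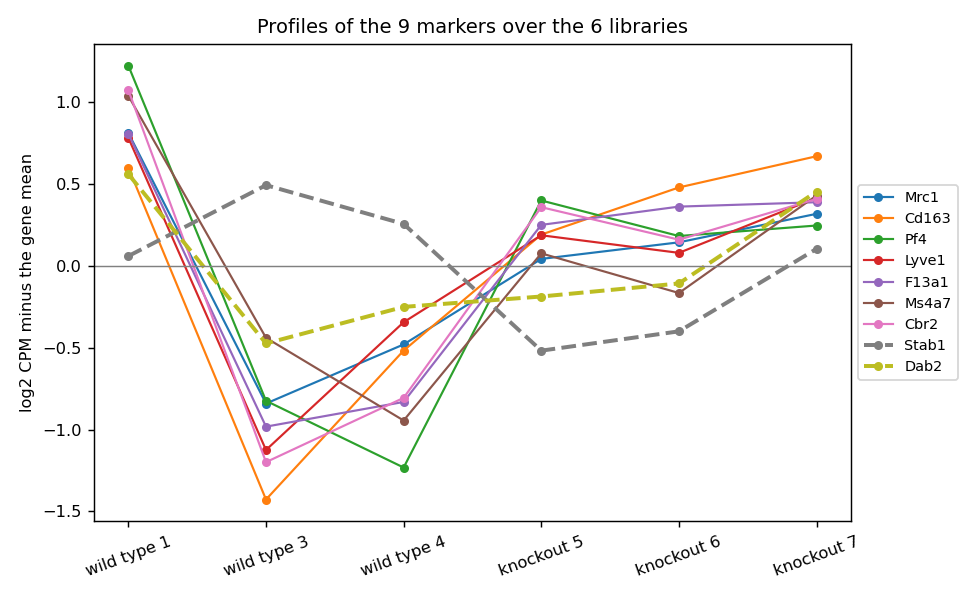
Profiles of the 9 markers over the 6 libraries, as log2 CPM minus the gene's mean (vertical axis). Lines only join the points of 1 gene, and dashed lines are Stab1 and Dab2. All markers but Stab1 are low in wild type replicates 3 and 4, and Stab1 is highest in wild type replicate 3.

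The fold changes depended on which wild type library was included. Without wild type replicate 1, the log2 fold change of F13a1 was 1.24 ± 0.14 (SE; edgeR adjusted p = 0.0263), that of Pf4 1.3 ± 0.21 (SE; edgeR adjusted p = 0.0413) and that of Cbr2 1.3 ± 0.21 (SE; edgeR adjusted p = 0.0406). These 3 members passed as higher in that setting, in which 1.77% of all 17320 genes tested passed as higher and 0.0866% as lower. Genes of other cell types passed as higher in it too: 6 of 10 astrocyte, 4 of 8 oligodendrocyte, 3 of 9 fibroblast, 2 of 9 mural and 1 of 12 endothelial genes tested. Their median log2 fold changes were 3.10, 2.66, 2.38, 1.77 and 1.34, against 0.91 for the 9 members. The part of these cells in the members' values was not tested. Cd163, Mrc1, Lyve1, Ms4a7 and Dab2 had log2 fold changes of 1.36, 0.82, 0.91, 0.81 and 0.44 and did not pass, with edgeR adjusted p from 0.0716 for Cd163 to 0.351 for Dab2. Without wild type replicate 3, Mrc1, Pf4, Lyve1, Cbr2 and Dab2 had negative fold changes, for example -0.13 for Mrc1 and -0.19 for Pf4. Stab1 was negative in all 6 settings that left out a library, from -0.73 to -0.40. Leaving out wild type replicate 1 keeps the wild type replicates that had the largest share of reads with no feature. That property cannot be told apart there from genotype.

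**Figure D3:**
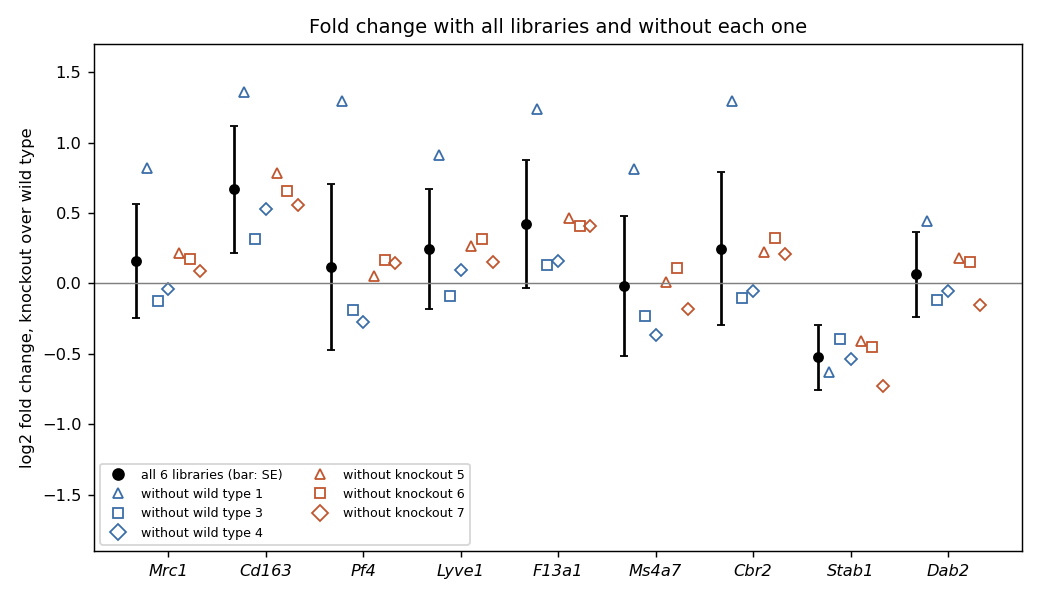
Log2 fold change of each marker, knockout over wild type (vertical axis), with all 6 libraries (black, bar is the SE) and without each library in turn (open symbols). Without wild type replicate 1 every marker but Stab1 moves up, to 1.36 for Cd163. Stab1 stays below 0 in all 7 fits.

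Other genes of border-associated macrophages, a list of 32 of which 29 were tested, showed the same order in 16 of 29 cases, against 3.97% of all genes tested. Of these 29 genes, 0 were called by edgeR and 0 had an unadjusted edgeR p under 0.05. Their median log2 fold change was 0.08, with 18 positive and 11 negative. Some well-known genes of the list were named after their values were seen. Clec10a, a lectin, had 30.1, 9.41 and 9.4 CPM in wild type, against 17.6, 20.4 and 22.9 CPM in knockout libraries. The fatty acid receptor gene Cd36 stood at 31.5, 6.79 and 7.12 CPM in wild type, against 17.3, 17.2 and 19.5 CPM in knockout libraries. The chemokine gene Ccl24 had 48.3, 12.4 and 3.42 CPM against 19.6, 16.9 and 20.9 CPM, and the lectin gene Cd209f 12.2, 3.89 and 2.74 CPM against 6.09, 3.95 and 7.86 CPM. Siglec1, the sialic acid receptor CD169, differed from these, at 13.8, 10.2 and 14.2 CPM and 12.5, 12.2 and 17.3 CPM.

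Genes of this list with the smallest p-values or the highest levels followed other courses. Ednrb, an endothelin receptor that astrocytes also express, had 74.0, 19.8 and 22.0 CPM in wild type, against 107.1, 73.9 and 75.0 CPM in knockout libraries, a log2 difference of 1.13 ± 0.50 (SE; edgeR adjusted p = 0.637). Apoe, the lipid carrier apolipoprotein E, had log2 fold change 0.55, while Igfbp4, Ms4a6b, Nrp1 and Gas6 were at -0.35, -0.32, -0.20 and -0.19, none of them called. Without wild type replicate 1, Ednrb, Cd36 and Colec12 passed as higher (edgeR adjusted p = 0.0243, 0.0378 and 0.0464). Genes of MHC class II presentation, which mark a subset of border-associated macrophages, differed in level. The peptide loading genes H2-DMa and H2-DMb1 had 28.9 to 60.1 CPM and 21.1 to 45.2 CPM, and the invariant chain gene Cd74 had 3.36 to 15.3 CPM. H2-Ab1 was at or below 3.71 CPM, H2-Aa and H2-Eb1 were at or below 1.37 CPM, and the regulator Ciita was at or below 0.174 CPM. Of this list of 7, 0 of the 6 tested showed the order described, against 3.97% of all genes tested.

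No gene of the lists for macrophages in general and for microglia showed the full order. It held for 0 of 16 microglial genes and 0 of 18 general macrophage genes, against 3.97% of all genes tested, so a count of 0 in lists this short says little. Wild type replicate 1 was highest for 11 and 8 of these genes, against 16.4% of all genes tested. Wild type replicate 3 or 4 was lowest for 5 and 6 of them, against 46.2%. Every gene of both lists had a negative fold change, with medians of -0.33 and -0.31 and none called by edgeR. Their wild type ranges were narrower, with a median of 1.62-fold and 1.63-fold per gene. Of the microglial genes, Crybb1, a crystallin, had an unadjusted p under 0.05 and groups that did not overlap, with a log2 difference of -0.42 ± 0.15 (SE; edgeR adjusted p = 0.637). The transcription factor gene Maf was also lower in all knockout libraries, at 594, 584 and 612 CPM in wild type, against 371, 493 and 531 CPM in knockout, without passing (edgeR adjusted p = 0.637). Fcrls, a microglial receptor, and Csf1r had log2 fold changes of -0.53 and -0.30, beside -0.53 for Stab1.

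Markers of vessels, fibroblasts and glia moved with the macrophage markers between the wild type libraries. The 10 mural cell genes summed to 79.1, 30.0 and 23.4 CPM in wild type, against 127.0, 87.4 and 100.3 CPM in knockout libraries. The 12 fibroblast genes summed to 87.3, 16.5 and 46.0 CPM and 135.6, 124.2 and 80.5 CPM, with Lum at or below 0.359 CPM and Dpep1 at 0 in every library. Pdgfra, which oligodendrocyte precursors also express, made up 51.8, 0.814 and 14.4 CPM and 77.1, 76.3 and 30.1 CPM of this sum. The 11 other fibroblast genes, a split made after the values were seen, summed to 35.5, 15.7 and 31.6 CPM and 58.5, 47.9 and 50.3 CPM. All 3 knockout libraries were above every wild type library in this sum, but not in the sum of all 12. Gene by gene, 4 of 9 fibroblast genes tested were higher in every knockout library, against 6.34% of all genes tested. The 12 endothelial genes summed to 174, 129.9 and 80.5 CPM and 223, 161 and 205 CPM. Slco1c1 alone made up 28.1, 10.9 and 4.27 CPM and 112.6, 39.7 and 57.7 CPM of this sum. The place of the endothelial sum relative to replicate 1 thus leaned on 1 gene. Of the 12 endothelial genes, 11 had positive fold changes and 1 a negative one. The 10 astrocyte genes summed to 3489, 631 and 293 CPM and 6160, 3432 and 3858 CPM. The 8 oligodendrocyte genes summed to 2397, 548 and 166 CPM and 2386, 2005 and 2417 CPM. All 5 sums were higher in wild type replicate 1 than in replicates 3 and 4, as for the 8 markers, but at least 2 of the 3 knockout libraries exceeded replicate 1 for endothelial, mural, fibroblast and astrocyte genes, and 1 did for oligodendrocyte genes. The order of libraries described above held for 1 of 9 mural, 2 of 8 oligodendrocyte and 0 of 12 endothelial, 9 fibroblast and 10 astrocyte genes tested. Over all genes tested it held for 3.97%. Mural genes Notch3 and Myh11, and the fibroblast collagen gene Col1a2, had fold changes of 1.57, 1.66 and 1.48 on the log2 scale, none of them called with all libraries. Without wild type replicate 1, Notch3 and Col1a2 passed as higher (edgeR adjusted p = 0.0377 and 0.0243).

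Markers of blood cells differed widely in level. The monocyte receptor gene Ccr2 had 2.09 to 8.02 CPM, beside 4.84 to 19.2 CPM for Ms4a7, and the matrix gene Fn1, on the same list, 5.64 to 33.3 CPM. Among 13 monocyte and neutrophil genes, Ly6c2, S100a8, S100a9 and Retnlg were at or below 0.0624 CPM and Ly6g was at 0 in every library, while Csf3r, which microglia also express, and Vcan, a matrix proteoglycan that glia also make, together made up most of the sum in every library. Of the mast cell genes, Cma1, Cpa3 and Tpsb2 were at or below 0.0781 CPM, and Kit, a receptor that other cells also express, had 0.362 to 3.86 CPM. Haemoglobin and other red blood cell genes summed to 94.6, 124 and 33.7 CPM in wild type, against 71.2, 109.5 and 65.6 CPM in knockout libraries, with wild type replicate 3 the highest. The summed level over all libraries was 535 to 759 CPM for monocyte and neutrophil genes, 27.8 to 39.2 CPM for genes of dendritic, B, T and NK cells, 0.724 to 5.23 CPM for mast cell genes and 0.271 to 5.43 CPM for choroid plexus genes. It was 38.0 to 69.0 CPM for lymphatic genes and 19.0 to 92.9 CPM for glutamatergic neuron genes, and none of the genes tested in these lists was called.

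**Figure D4:**
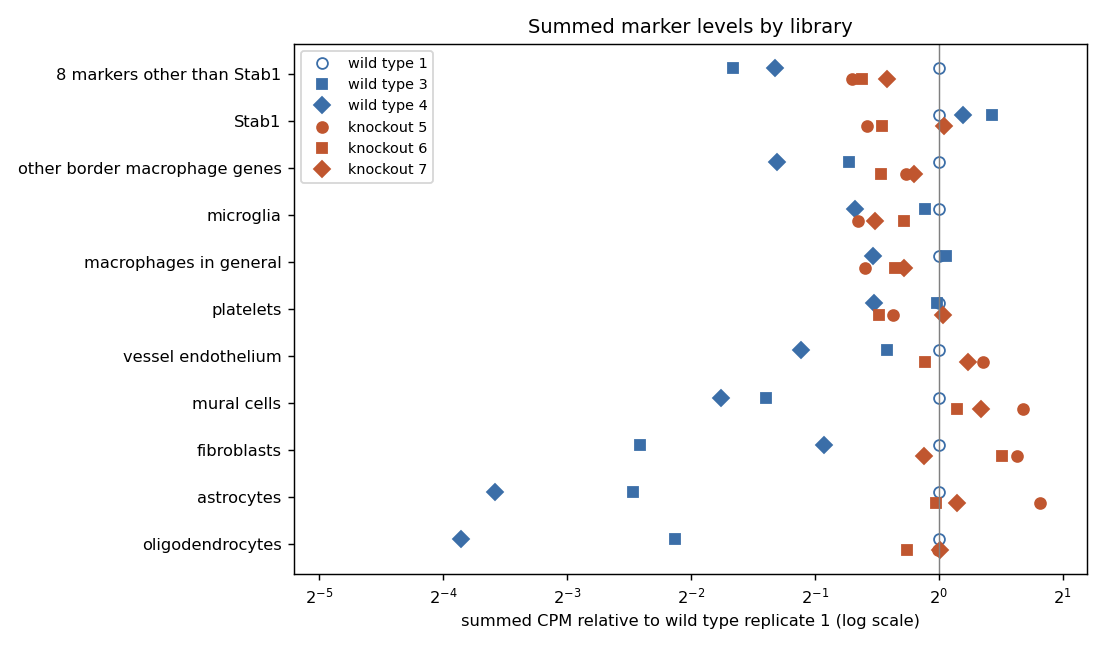
Summed CPM of marker groups in each library, relative to wild type replicate 1 (horizontal axis, log scale). The 8 markers other than Stab1 and the vessel, fibroblast and glial groups are lowest in wild type replicates 3 and 4. For the 8 markers and the other border macrophage genes the 3 knockout libraries lie below replicate 1, and for mural cells all 3 lie above it.

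The genes whose profile over the 6 libraries came closest to the mean profile of the 9 members, among 15383 with at least 1 CPM, were Serpinb8, Msr1, Slc8a2, Gprc5c and Iqgap2, with root mean square differences of 0.10 to 0.14 on the log2 scale. Msr1, the macrophage scavenger receptor 1, had 15.2, 5.97 and 5.98 CPM in wild type, against 9.1, 8.44 and 12.6 CPM in knockout libraries. The nearest gene to Cbr2 was Cd36, at 0.11, and that to F13a1 was Csrnp1, at 0.08. Serpinb8 was nearest to Mrc1 at 0.13, Syt7 to Cd163 at 0.13, Cabp1 to Pf4 at 0.12, Gfra2 to Lyve1 at 0.12, Fam241a to Ms4a7 at 0.13 and the pseudogene Gm6563 to Dab2 at 0.12. Stab1 had Ccdc88b as its nearest gene, at 0.03, with 208, 290.0 and 247 CPM in wild type, against 149, 155 and 225 CPM in knockout libraries. With 6 libraries many genes share a profile, among them genes of neurons such as Syt7 and Slc8a2, and these distances are descriptions without a test.

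Promoter sequences from RefSeq (GRCm38.p6), 250 bases before to 50 bases after the start, were given for 8 of 9 members in 11 windows; Lyve1 was not among them. The letters GAGGAA, the core of a site for the macrophage factor PU.1, were in 9 of the 11 windows on either strand, in 7 of 8 genes, and in 28.3% of the 32851 windows of all genes. TGCTGA, the core of a MAF recognition element, was in 3 of 11 windows and in 19.5% of all windows, and TGACTCA, an AP-1 site, in 0 of 11 and 5.2%. No matches overlapped each other in the members' windows. A match says only that these letters are present. Bases before the start, up to 250 and without any that GENCODE M21 places inside the gene, are shown for Mrc1, Pf4 and F13a1, which shared the order of libraries, for Cd163, which had no match, and for Stab1, which departed from the order. Capitals mark GAGGAA, its reverse complement TTCCTC, or TGCTGA, and sequences run 5′ to 3′ in the direction of the gene.
Mrc1, chr2:14229164-14229391 (plus strand): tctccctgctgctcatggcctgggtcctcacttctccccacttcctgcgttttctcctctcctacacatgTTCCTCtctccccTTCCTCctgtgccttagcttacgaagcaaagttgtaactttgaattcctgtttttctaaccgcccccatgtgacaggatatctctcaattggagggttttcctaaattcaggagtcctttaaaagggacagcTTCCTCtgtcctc
Pf4, chr5:90772185-90772434 (plus strand): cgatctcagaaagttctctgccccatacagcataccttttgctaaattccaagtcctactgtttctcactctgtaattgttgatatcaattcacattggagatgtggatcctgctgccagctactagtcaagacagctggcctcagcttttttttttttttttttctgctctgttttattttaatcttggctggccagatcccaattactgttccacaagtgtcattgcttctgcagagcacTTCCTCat
F13a1, chr13:37050245-37050494 (minus strand): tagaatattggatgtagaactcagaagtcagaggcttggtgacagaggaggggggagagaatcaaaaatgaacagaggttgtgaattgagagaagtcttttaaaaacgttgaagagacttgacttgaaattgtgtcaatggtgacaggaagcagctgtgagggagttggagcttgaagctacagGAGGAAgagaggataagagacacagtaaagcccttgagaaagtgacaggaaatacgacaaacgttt
Cd163, chr6:124304401-124304650 (plus strand): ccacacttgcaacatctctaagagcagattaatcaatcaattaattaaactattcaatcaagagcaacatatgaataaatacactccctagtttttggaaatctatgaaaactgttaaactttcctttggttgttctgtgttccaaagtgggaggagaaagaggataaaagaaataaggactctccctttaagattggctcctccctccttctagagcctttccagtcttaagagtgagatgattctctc
Stab1, chr14:31168642-31168891 (minus strand): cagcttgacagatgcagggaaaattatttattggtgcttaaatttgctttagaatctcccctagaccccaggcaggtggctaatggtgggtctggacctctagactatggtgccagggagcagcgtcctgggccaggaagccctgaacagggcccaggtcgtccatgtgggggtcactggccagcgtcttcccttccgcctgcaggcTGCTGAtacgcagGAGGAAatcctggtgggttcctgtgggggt
Mrc1 held 3 matches to GAGGAA in this stretch, all on the opposite strand, the nearest beginning 35 bases before the RefSeq start. That start lies inside the gene as GENCODE places it, so the 228 bases shown stop short of it. Stab1 held GAGGAA and TGCTGA, beginning 30 and 43 bases before the start. GAGGAA was also in the windows of Mrc1, Pf4 and F13a1, and TGCTGA in those of Cbr2 and Dab2, all members that shared the order.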

How the data were processed

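RNA was measured by sequencing in 6 cortical libraries, 3 per group. The authors deposited whole-number counts for each gene, with a separate file for every library. Per the submitters' processing notes, Trim Galore 0.60, STAR 2.7, HTSeq 1.31 and build mm10 were used; the annotation release and the strand setting of the counting were not stated there, so antisense overlaps are given. The kit marked strand, per the labels' protocols. The 5 summary lines per file, which name no gene, stayed out of totals (39.95% to 58.2% of reads had no feature and 1.94% to 14.5% were ambiguous).

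Identifiers were matched to GENCODE M21 (GRCm38) without version (53274 of 53379), and coordinates and exon lengths come from it. Libraries of a group differed beyond sampling noise (chi-square per degree of freedom of at least 49.8), and each was counted as 1 sample. Genes were tested with the quasi-likelihood test of edgeR 4.0.16 in R 4.3.3 (TMM, default expression filter, robust shrinkage, two-sided, Benjamini-Hochberg adjustment over 17221 genes, threshold 0.05). The SE was derived from the F statistic. DESeq2 1.42.0, limma-voom (limma 3.58.1), other scalings and filters, and leaving out each library were alternatives. Scripts were tested on simulated data. A count of 3, the limit a count of 0 allows, corresponded to 0.0982 to 0.22 CPM.

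Members and the 19 other gene lists were chosen with earlier results of these data known. Named genes were all members, and up to 4 per list by smallest p and 3 by level. The nearest 5 profiles and the nearest gene per member were named too. Others were named outside this rule with their values at hand, many of them low-level genes such as Ppbp, Ly6g and Lum. Only some of these are marked so where they are named.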

Additional observations from a re-analysis of the deposited data

How the results depend on the processing

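No paired analysis was possible because the groups share no replicate numbers. Members called higher numbered 0 of 9 with all libraries and 3 without wild type replicate 1 (0 to 3 over the settings without 1 library), and 0 in the other 16 alternatives; none was called lower in any. Over all genes, calls of higher genes went from 1 to 21 with DESeq2, 4 without the filter on low counts and 0 with protein-coding genes alone. They ran from 1 to 306 over the settings without 1 library. Calls of lower genes went from 0 to 7 with DESeq2, 1 without the filter, and 0 to 15 without 1 library. The term for Y-linked reads, chosen after seeing the data, leaves 1 knockout library to compare, so its calls over all genes are not given. Cd163, F13a1 and Stab1 had the same sign in all 17 alternatives. Without 1 library, log2 fold changes ran from -0.13 to 0.82 for Mrc1, -0.27 to 1.3 for Pf4, -0.09 to 0.91 for Lyve1, -0.36 to 0.81 for Ms4a7, -0.11 to 1.3 for Cbr2 and -0.15 to 0.44 for Dab2, so their sign was not fixed. The sign of Ms4a7, at -0.02 with all libraries, also turned with library totals alone (0.12), limma-voom (0.0799), and the term for Y-linked reads (0.28), and without knockout replicates 5 or 6 (0.01 and 0.11). Signs turned without wild type replicate 3 for Mrc1, Pf4, Lyve1, Cbr2 and Dab2 (-0.13, -0.19, -0.0878, -0.11 and -0.12), without replicate 4 for Mrc1, Pf4, Cbr2 and Dab2 (-0.04, -0.27, -0.05 and -0.06), and without knockout replicate 7 for Dab2 (-0.15). The difference in the summed level of the 8 members other than Stab1, 119.9 CPM higher in knockout, ran from -33.4 to 377 CPM without 1 library. The cause was not tested. Member counts of 76 to 47010 per library leave the spread between libraries, not counting error, as the larger limit.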
